A study of Mus musculus with 7 samples.

Results

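The genes described here are 49 genes of DNA replication and S phase, chosen by name as a fixed list of gene symbols. All 49 symbols were found among the 26607 genes listed in the RNA-seq tables, and none was missing. The libraries were made from myotubes of C2C12, an established mouse myoblast line whose cells leave the cell cycle and fuse when serum is lowered. The control group held 3 libraries of unstimulated myotubes, carrying replicate numbers 1, 3 and 4, and the EPS group held 4 libraries, carrying replicate numbers 1 to 4. EPS is electrical pulse stimulation, which makes cultured myotubes contract, and was given for 24 h at 1 Hz from day 3 of differentiation in 2% fetal bovine serum, with 1 h of rest before RNA was taken. No transgene, deletion or further agent separated the groups, and a culture of this line also holds mononucleated cells beside the myotubes. The labels number the libraries without saying that they came from separate cultures, so the p-values measure the spread between these libraries. Because these are bulk RNA samples, fewer cells of a type and less RNA per cell cannot be told apart.

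Cells copy their DNA in S phase, after transcription factors of the E2F family have switched on the genes that the copying needs. Origins of replication are first licensed by the ORC, CDC6 and CDT1 proteins, which load the ring-shaped MCM helicase. Kinases then fire the licensed origins, and polymerases copy each strand on a sliding clamp while the RPA proteins cover single-stranded DNA and ribonucleotide reductase supplies deoxynucleotides. Muscle precursors stop this program when they differentiate, and nuclei inside a myotube do not normally replicate.

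Levels are in CPM, the reads on a gene scaled to a common total over all listed genes of that library. Libraries held between 16616917 and 22120641 reads in the control group and between 18830229 and 21892568 in the EPS group. Each of the 49 genes was above 0 in each of the 7 libraries, with at least 12 reads (Orc1, control replicate 4), so that no gene was lost to the filter on low values. Of the 49 genes, 11 share exon sequence with another gene listed under its GENCODE M21 name, which is named beside those that the results turn on. Older symbols of the overlapping genes were not searched for, and 18 of the 49 share exon sequence with any annotated gene. Control replicate 4 stood apart from the rest, with 359 genes at 1 to 5 reads where the other libraries had 2670 to 3181. For the main results the value without it is also given. All 12 myotube markers were above 0 in every library. Endothelial markers reached at most 0.931 CPM and macrophage markers at most 2.07 CPM, and 3 of the 4 adipocyte markers were at 0 in all libraries.

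Because many S phase genes are known E2F targets, their promoters are shown beside their levels. RefSeq windows on GRCm38.p6, from 250 bases before to 50 bases after the transcription start, were given for 42 of the 49 genes, and 18 of these, or 42.9%, held at least 1 of 4 E2F words (TTTGGCGC, TTTCCCGC, TTTCGCGC or TTTGCCGC, on either strand; words may overlap each other). Over all 27025 genes with a window of this length, 2.605% held one. Those genes were not matched to the 49 in base composition or level, and the 49 were listed as replication genes. A match of letters is a description of the sequence and not a measured binding site. The 160 bases upstream of the start are printed 5′ to 3′ on the gene's strand for 5 genes, with E2F words in capitals. Of the helicase genes with a window, Mcm5 and Mcm6 were those with 2 or more words upstream, and Rfc3, Rrm1 and E2f2 were genes whose EPS and control libraries did not overlap. Rrm2, another such gene, is not printed, and its window held none of the 4 words. The stretches lie at chr8:75109349-75109508 on the plus strand for Mcm5, at chr1:128359706-128359865 on the minus strand for Mcm6, at chr5:151651209-151651368 on the minus strand for Rfc3, at chr7:102441535-102441694 on the plus strand for Rrm1 and at chr4:136172114-136172273 on the plus strand for E2f2.
Mcm5: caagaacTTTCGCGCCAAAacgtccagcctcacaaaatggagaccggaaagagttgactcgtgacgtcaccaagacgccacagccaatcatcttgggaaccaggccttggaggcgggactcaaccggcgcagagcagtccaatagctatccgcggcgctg
Mcm6: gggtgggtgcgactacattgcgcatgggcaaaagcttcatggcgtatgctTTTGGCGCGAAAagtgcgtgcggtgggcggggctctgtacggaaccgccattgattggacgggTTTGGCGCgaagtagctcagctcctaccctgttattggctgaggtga
Rfc3: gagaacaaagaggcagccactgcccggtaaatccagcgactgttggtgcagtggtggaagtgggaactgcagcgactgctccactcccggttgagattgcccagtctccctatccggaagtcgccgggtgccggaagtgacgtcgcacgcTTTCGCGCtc
Rrm1: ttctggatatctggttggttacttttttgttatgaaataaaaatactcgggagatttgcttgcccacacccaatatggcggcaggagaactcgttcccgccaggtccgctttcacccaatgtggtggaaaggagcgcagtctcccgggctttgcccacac
E2f2: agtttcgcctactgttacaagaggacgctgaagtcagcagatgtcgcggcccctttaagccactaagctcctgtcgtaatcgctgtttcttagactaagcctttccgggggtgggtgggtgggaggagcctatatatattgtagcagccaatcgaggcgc
In Mcm5 a pair of overlapping words began 153 and 149 bases before the start. Mcm6 held such a pair at 110 and 106 bases and another word 47 bases before the start. Rfc3 held a word 10 bases before its start and another 1 base after it, and no word was found upstream of Rrm1 or of E2f2, whose window held a word 40 bases after the start. E2f2 had 2 windows, and the one that held the word, chr4:136172024-136172323, ends before the GENCODE M21 start of the gene (136172394). That word thus lies upstream of the GENCODE start.

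The comparison of EPS with control asked how the stimulated myotubes differed from unstimulated ones in the abundance of these transcripts. On average few of the 49 genes differed. E2f2, an activating E2F, was lower in all 4 EPS libraries than in any control library, and Rrm1 and Rrm2, the subunits of ribonucleotide reductase, and Rfc3, a subunit of the clamp loader, were higher in all 4. These 4 genes are 8.16% of the 49, where the groups did not overlap for 10.6% of tested genes. The most pronounced feature was the spread among the EPS libraries themselves: EPS replicate 4 held the highest level of all 7 libraries for 41 of the 49 genes, while EPS replicates 2 and 3 were often at or under the control level. In limma, none of the 49 genes passed both an unadjusted P under 0.01 and a change beyond 2-fold, where 269 of 19144 tested genes, or 1.41%, did (0.966% higher and 0.439% lower). No gene of the 49 had an adjusted p under 0.05 in limma, where 0.141% of tested genes did. edgeR's quasi-likelihood test and DESeq2 on the recovered reads also placed 0 of the 49 past the P and fold thresholds, where 3.29% and 3.06% of tested genes passed, and by adjusted p under 0.05 edgeR named none of the 49 (1.51% of tested genes) and DESeq2 named E2f2 alone (2.6%). At an unadjusted P under 0.05, edgeR placed 4 genes higher (5.6% of tested genes) and E2f2 and Cdk2 lower (5.95%), and DESeq2 placed 4 higher (5.19%) and E2f2 lower (5.42%).

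At an unadjusted P under 0.05, 5 of the 49 genes, or 10.2%, differed in limma, where 11.6% of all tested genes did. Gmnn, Rfc3, Rrm1 and Rrm2 were higher (8.16% of the 49 against 8.4% of tested genes) and E2f2 was lower (2.04% against 3.21%). Of all tested genes 7.76% were higher and 2.85% lower with no overlap between the groups, and of the 49 genes 3 (Rfc3, Rrm1 and Rrm2) and 1 (E2f2) were. These shares lie close to the background or below it. The log2 fold change was above 0 for 38 of the 49 genes, or 77.6%, where 63.3% of tested genes were above 0, and its median was 0.23 against 0.10 over the 12256 genes with a mean of at least 1 CPM. Median-of-ratios scaling moved that median over the 12256 genes from 0.10 to −0.0048 and quantile normalization moved it to 0.0052. Under these scalings 31 and 32 of the 49 genes were above 0, and the median of the 49 was 0.13 in both. Without EPS replicate 4 the median was 0.0025 and 25 of the 49 were above 0, and without control replicate 4 it was 0.20 with 40 above 0.

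**Figure D1:**
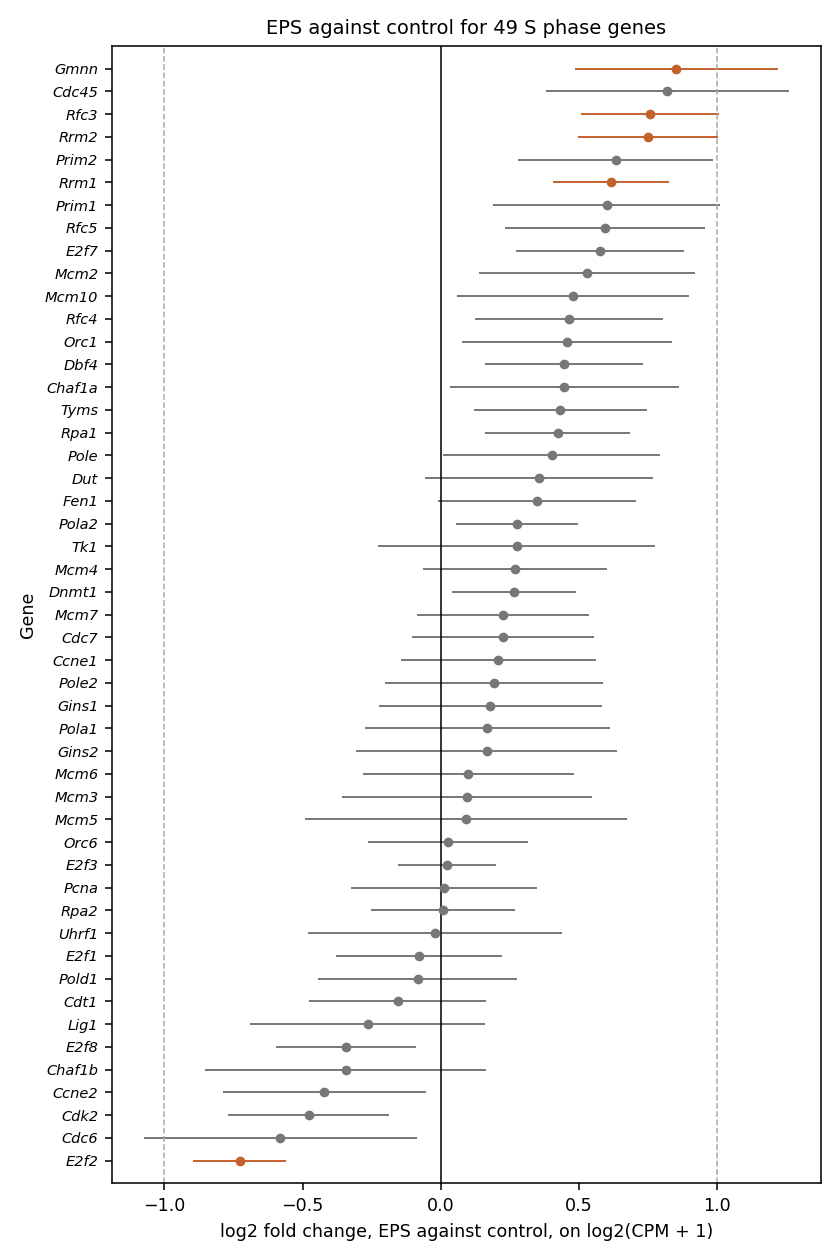
Log2 fold change of EPS against control for each of the 49 genes on the log2(CPM + 1) scale, with bars of 1 standard error from limma and dashed lines at 2-fold. The values run from −0.73 for E2f2 to 0.85 for Gmnn, and orange points mark the 5 genes with an unadjusted P under 0.05. Some genes near 0, among them Pcna, Mcm3, Mcm5 and Mcm6, change sign under median-of-ratios scaling.

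Among the G1/S transcription factors, E2f1, E2f2 and E2f3 code for activators and E2f7 and E2f8 for repressors that damp the same targets. E2f2 (chr4:136172394-136196057, GENCODE M21, GRCm38) stood at 143, 102 and 117 CPM in control replicates 1, 3 and 4 and at 77.8, 59.4, 79.3 and 73.3 CPM in EPS replicates 1 to 4. The 4 EPS libraries lay close together and under all 3 controls. Control averaged 121 ± 20.7 CPM (SD, n = 3) and EPS averaged 72.4 ± 9.07 CPM (SD, n = 4). The log2 fold change was −0.73 (SE 0.17) with an adjusted p of 0.139 in limma, and the exact two-sided permutation p was 0.0286, the smallest that 35 splits can give. It was −0.74 without EPS replicate 4 and −0.74 without control replicate 4. Per kilobase of transcript E2f2 was the most abundant of the 5 E2F genes in each library, at 12.5 to 30.2 CPM per kilobase, where the other 4 lay between 1.47 and 12.7.

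E2f1 was at 20.4, 16.6 and 34.8 CPM in the control libraries and at 27.4, 15.0, 19.6 and 26.5 CPM in the EPS libraries, so that the groups overlapped. Its log2 fold change of −0.079 (SE 0.30; adjusted p = 0.925 in limma) became 0.22 without control replicate 4. E2f7 was at 13.4, 8.06 and 9.40 CPM in the control libraries and at 18.4, 10.1, 13.7 and 22.4 CPM in the EPS libraries. It was high in EPS replicates 1 and 4 and did not pass the test, with a log2 fold change of 0.58 (SE 0.30; adjusted p = 0.507 in limma). Without EPS replicate 2 it was 0.77 with an unadjusted P under 0.05, and it was 0.41 without EPS replicate 4 and 0.43 without control replicate 3. Its exons overlap an antisense transcript, 1700020G17Rik, and whether reads were counted by strand is not given in the sources used here. E2f3 varied least of the 49 genes among the EPS libraries, between 25.5 and 30.0 CPM, against 23.8 to 35.1 CPM in the control libraries. E2f8 lay between 18.7 and 38.8 CPM in the control libraries and between 18.9 and 26.6 CPM in the EPS libraries.

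The S phase kinases are cyclin E with CDK2, which start S phase, and CDC7 with its activator DBF4, which fire licensed origins. None of the 5 genes passed the test at an unadjusted P under 0.05 in limma. Cdk2 (34.2, 53.4 and 42.8 CPM in control; 21.6, 50.7, 24.6 and 31.7 CPM in EPS) ran against most genes of the list: it was low in EPS replicates 1, 3 and 4 and within the control range in EPS replicate 2. Its log2 fold change was −0.48 (SE 0.29; adjusted p = 0.586 in limma), with an unadjusted P under 0.05 in edgeR alone among the 3 tools, and it was −0.72, with an unadjusted P under 0.05 in limma, without EPS replicate 2. The Cdk2 gene shares exon sequence with Pmel on the opposite strand. Dbf4 was at 20.1, 23.2 and 21.2 CPM in control and at 34.3, 24.5, 19.2 and 47.5 CPM in EPS, with a log2 fold change of 0.45 (SE 0.29; adjusted p = 0.599 in limma). That value was 0.23 without EPS replicate 4 and 0.65, with an unadjusted P under 0.05, without EPS replicate 3. The 3 control libraries of Dbf4 differed by 1.15-fold from lowest to highest and the 4 EPS libraries by 2.47-fold. Ccne1 was at 8.10, 5.66 and 4.48 CPM in control and at 6.75, 5.94, 4.52 and 12.8 CPM in EPS, and only EPS replicate 4 lay above the control range. Without that library the log2 fold change of 0.21 (SE 0.35; adjusted p = 0.865 in limma) became −0.053. Ccne2 lay between 4.08 and 8.24 CPM in control and between 2.19 and 7.38 CPM in EPS, and Cdc7 between 3.79 and 7.82 CPM and between 4.20 and 9.56 CPM.

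Licensing is carried out by ORC, CDC6 and CDT1, and geminin, the product of Gmnn, blocks CDT1 after S phase has begun. Gmnn was at 5.42, 4.99 and 3.25 CPM in the control libraries and at 8.89, 7.65, 5.30 and 16.7 CPM in the EPS libraries. EPS replicates 1, 2 and 4 lay above all controls, and EPS replicate 3 was just under control replicate 1. The log2 fold change of 0.85 (SE 0.37; adjusted p = 0.418 in limma; exact two-sided permutation p = 0.0857) was the largest of the 49 genes. It was 0.57 without EPS replicate 4 and 0.67 without control replicate 4, and in neither did the unadjusted P stay under 0.05. Nor was it under 0.05 with either other scaling, in the unfiltered fit, or without EPS replicate 1 or 2 or control replicate 1 or 3. Cdt1, the partner of geminin, did not share that pattern: it was at 5.83, 5.96 and 9.31 CPM in control and at 6.56, 4.48, 4.57 and 9.88 CPM in EPS. The log2 fold change of Cdt1 was −0.16 (SE 0.32; adjusted p = 0.869 in limma) and became 0.038 without control replicate 4. Cdc6 was at 4.55, 7.94 and 4.97 CPM in control and at 4.70, 1.90, 1.37 and 9.08 CPM in EPS. EPS replicates 2 and 3 lay below all controls and EPS replicate 4 above them, a 6.63-fold range within the EPS group against 1.75-fold within the control group. Orc1, the least abundant of the 49 genes per kilobase in control replicate 4, lay between 0.542 and 3.25 CPM in control and between 1.60 and 3.98 CPM in EPS. Orc6 lay between 31.1 and 44.8 CPM in control and between 23.4 and 54.0 CPM in EPS.

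In the MCM genes the EPS libraries differed widely from each other. MCM2 to MCM7 form the helicase ring, CDC45 and the GINS proteins join it to make the active helicase, and MCM10 helps to start it. Mcm5 was at 23.6, 30.0 and 31.0 CPM in the control libraries and at 52.9, 10.5, 18.7 and 73.8 CPM in the EPS libraries. EPS replicates 1 and 4 were above all controls and EPS replicates 2 and 3 below all controls, so that the 4 EPS libraries spanned 7.05-fold and the controls 1.31-fold. Mcm5 averaged 28.2 ± 4.003 CPM in control (SD, n = 3) and 39.0 ± 29.6 CPM in EPS (SD, n = 4). This left a log2 fold change of 0.092 (SE 0.58; adjusted p = 0.955 in limma). Mcm3, Mcm6 and Mcm7 also had EPS replicates 1 and 4 above all controls and replicates 2 and 3 below them. Mcm6 was at 46.1, 50.4 and 42.4 CPM in control and at 67.9, 27.6, 34.5 and 92.7 CPM in EPS.

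The other members of the ring had the same ranking at the top, with EPS replicate 4 highest and EPS replicate 1 next in each of Mcm2 to Mcm7. Mcm2 was at 23.2, 34.4 and 13.7 CPM in control and at 39.0, 25.9, 19.8 and 55.7 CPM in EPS. Its control libraries also differed by 2.52-fold, and its log2 fold change was 0.53 (SE 0.39; adjusted p = 0.654 in limma), or 0.20 without control replicate 4 and 0.28 without EPS replicate 4. Mcm3 was at 26.4, 27.1 and 19.7 CPM in control and at 39.0, 12.5, 17.0 and 52.7 CPM in EPS. Mcm4 was at 35.1, 43.4 and 26.1 CPM in control and at 47.5, 30.0, 28.2 and 72.4 CPM in EPS. Mcm7 was the steadiest of the 6 in the control group, at 43.1, 47.7 and 45.1 CPM, and stood at 63.4, 38.5, 35.1 and 92.5 CPM in EPS. Exons of Mcm7 overlap Cops6 and Ap4m1 on the opposite strand and the precursors of Mir25 and Mir93 on its own. Summed over the 6 ring genes, the level was 197, 233 and 178 CPM in control and 310, 145, 153 and 440 CPM in EPS. Per kilobase, the most and the least abundant ring gene differed by 1.93-fold to 4.20-fold within a library, and the least abundant was Mcm2 or Mcm5 and the most abundant Mcm6 or Mcm7 in every library.

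Cdc45 was at 6.47, 13.8 and 3.30 CPM in control and at 12.9, 13.7, 7.77 and 19.1 CPM in EPS. It had the second largest log2 fold change, 0.82 (SE 0.44; adjusted p = 0.517 in limma), on controls that differed by 4.19-fold, and it was 0.39 without control replicate 4 and 1.28, with an unadjusted P under 0.05, without control replicate 3. Exons of Cdc45 overlap Ufd1 on the opposite strand, a name that is not among the listed genes. Mcm10 lay between 1.85 and 4.69 CPM in control and between 2.68 and 10.1 CPM in EPS. The GINS subunits Gins1 (2.62 to 3.73 CPM in control, 1.64 to 8.13 CPM in EPS) and Gins2 (3.21 to 12.6 CPM, 4.52 to 13.7 CPM) overlapped between the groups. In all, the 10 genes of the helicase and its partners had log2 fold changes above 0 and none passed the test at an unadjusted P under 0.05, with 7 of 10 above 0 under median-of-ratios scaling, 8 of 10 under quantile normalization and 4 of 10 without EPS replicate 4. In all 10 the highest of the 7 libraries was EPS replicate 4.

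**Figure D2:**
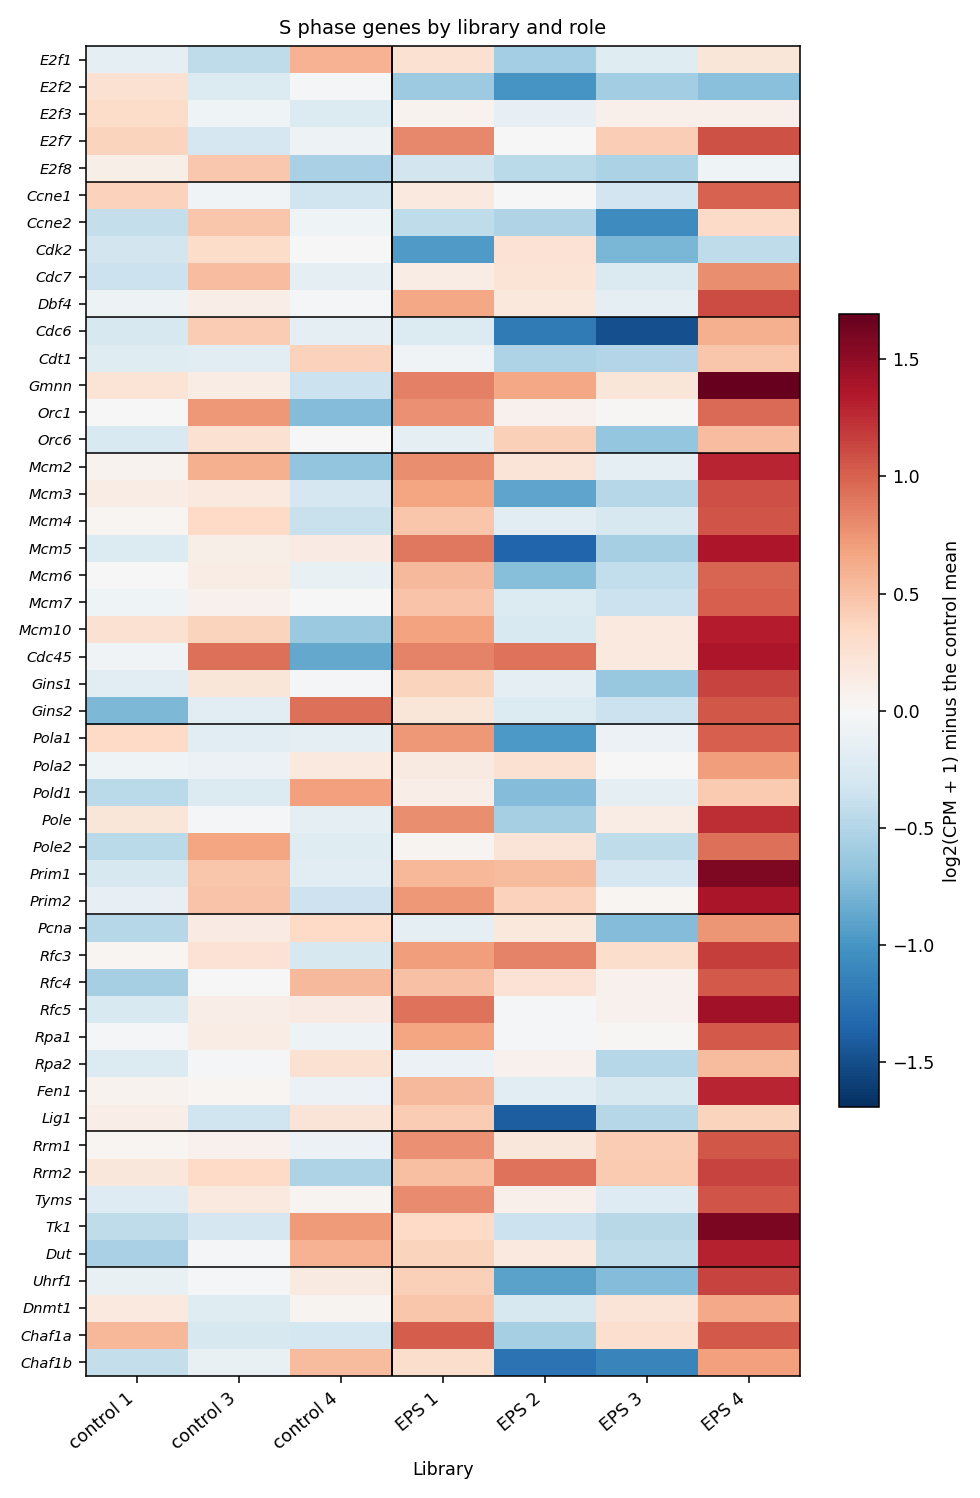
Log2(CPM + 1) of each of the 49 genes in each library minus its mean over the 3 control libraries, in blocks by role: transcription factors, kinases, licensing, helicase, polymerases, clamp and Okazaki processing, nucleotide supply and chromatin copying. Red is above and blue below the control mean. The EPS replicate 4 column is red for 46 of the 49 genes, and the columns of EPS replicates 2 and 3 are mixed, with Mcm5, Cdc6, Lig1 and Chaf1b among the deepest blue.

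The polymerase genes code for the polymerase alpha and primase complex, which lays down primers, and for polymerases delta and epsilon, which extend them. None of the 7 passed the test at an unadjusted P under 0.05. Prim1, the catalytic primase subunit, was at 8.34, 14.5 and 8.82 CPM in control and at 15.6, 15.3, 8.27 and 32.7 CPM in EPS. Its partner Prim2 was at 8.57, 13.7 and 7.23 CPM in control and at 16.4, 12.7, 9.73 and 26.3 CPM in EPS. Both were highest in EPS replicate 4, and in EPS replicate 3 they were within the control range or just under it, with log2 fold changes of 0.60 (SE 0.41; adjusted p = 0.629 in limma) for Prim1 and 0.63 (SE 0.35; adjusted p = 0.533 in limma) for Prim2. Without EPS replicate 4 these were 0.27 for Prim1 and 0.38 for Prim2, and without EPS replicate 3 they were 0.89 and 0.83 with an unadjusted P under 0.05. Pola1 lay between 14.3 and 20.9 CPM in control and between 7.84 and 33.9 CPM in EPS, and Pola2, the regulatory subunit beside it, between 13.9 and 17.0 CPM and between 14.9 and 25.1 CPM. Pold1, the catalytic subunit of polymerase delta, lay between 10.1 and 23.7 CPM in control and between 8.18 and 19.9 CPM in EPS. Pole and Pole2 of polymerase epsilon lay between 12.9 and 16.9 CPM and between 3.56 and 8.97 CPM in control, and between 9.55 and 36.0 CPM and between 3.65 and 11.0 CPM in EPS.

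At the fork, replication factor C opens the PCNA clamp and loads it onto DNA, RPA covers single strands, and FEN1 and DNA ligase I join Okazaki fragments. Rfc3 (chr5:151642756-151651242) was at 12.2, 14.3 and 9.81 CPM in the control libraries and at 20.3, 22.3, 15.0 and 28.4 CPM in the EPS libraries. All EPS libraries lay above all control libraries, by the least in EPS replicate 3. Rfc3 averaged 12.1 ± 2.26 CPM in control (SD, n = 3) and 21.5 ± 5.51 CPM in EPS (SD, n = 4). Its log2 fold change of 0.76 (SE 0.25) passed an unadjusted P under 0.05 but not the adjustment (adjusted p = 0.277 in limma; exact two-sided permutation p = 0.0571). It was 0.62 without EPS replicate 4 and 0.63 without control replicate 4. Rfc5, another subunit, was at 10.6, 14.1 and 14.4 CPM in control and at 25.3, 12.6, 13.6 and 36.2 CPM in EPS. It was high only in EPS replicates 1 and 4 (log2 fold change 0.59, SE 0.36; adjusted p = 0.585 in limma; 0.32 without EPS replicate 4), and its exons overlap Wsb2 on the opposite strand. Rfc4 lay between 4.78 and 11.5 CPM in control and between 7.95 and 16.6 CPM in EPS.

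Pcna, the clamp, was at 62.1, 95.9 and 109.8 CPM in control and at 78.0, 98.7, 51.8 and 147 CPM in EPS. EPS replicate 3 was its lowest library and EPS replicate 4 its highest, and its log2 fold change of 0.011 (SE 0.34; adjusted p = 0.990 in limma) was −0.10 under median-of-ratios scaling and −0.043 under quantile normalization. The processed pseudogenes Pcna-ps1 and Pcna-ps2 of GENCODE M21 are not among the listed genes, and how reads of such copies were handled is not given in the sources used here. Rpa1, the large RPA subunit, was at 50.1, 56.1 and 48.4 CPM in control and at 82.3, 50.5, 52.2 and 106 CPM in EPS, with a log2 fold change of 0.42 (SE 0.26; adjusted p = 0.588 in limma) that was 0.22 without EPS replicate 4. Rpa2 lay between 16.6 and 23.8 CPM in control and between 13.8 and 29.0 CPM in EPS. Fen1 was tight in control (16.9 to 18.9 CPM) and wide in EPS (14.8 to 45.5 CPM), and Lig1 lay between 21.7 and 32.5 CPM in control and between 9.94 and 37.8 CPM in EPS.

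The genes of nucleotide supply with an unadjusted P under 0.05 (8.4% of tested genes were higher at that P) were Rrm1 and Rrm2, subunits of ribonucleotide reductase, the enzyme that turns ribonucleotides into deoxyribonucleotides. Rrm1 (chr7:102441695-102469771), the large subunit, was at 115, 118 and 104 CPM in the control libraries and at 193, 129, 152 and 234 CPM in the EPS libraries. All EPS libraries lay above all controls. Rrm1 averaged 112 ± 7.20 CPM in control (SD, n = 3) and 177 ± 46.6 CPM in EPS (SD, n = 4). Its log2 fold change was 0.62 (SE 0.21; adjusted p = 0.292 in limma; exact two-sided permutation p = 0.0571), and it was 0.47 without EPS replicate 4 and 0.56 without control replicate 4. Rrm2 (chr12:24708241-24714146), the small subunit, which is made in S phase, was at 103, 114 and 62.7 CPM in control and at 129, 172, 123 and 201 CPM in EPS. Its lowest EPS library, replicate 3, lay above its highest control, replicate 3. Rrm2 averaged 93.4 ± 27.1 CPM in control (SD, n = 3) and 156 ± 37.1 CPM in EPS (SD, n = 4), and its log2 fold change was 0.75 (SE 0.25; adjusted p = 0.288 in limma; exact two-sided permutation p = 0.0286). Without control replicate 4 the log2 fold change of Rrm2 was 0.49 and its unadjusted P was no longer under 0.05.

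Tk1, the thymidine kinase of the salvage route, whose exons overlap Afmid on the opposite strand, was at 16.1, 18.0 and 37.3 CPM in control and at 28.3, 17.1, 15.7 and 68.9 CPM in EPS. Its log2 fold change of 0.27 (SE 0.50; adjusted p = 0.869 in limma) was −0.16 without EPS replicate 4 and 0.64 without control replicate 4, so that both its direction and its size rested on single libraries. Tyms, thymidylate synthase, lay between 18.0 and 23.8 CPM in control and between 17.9 and 45.3 CPM in EPS, and Dut, which removes dUTP, between 10.9 and 25.0 CPM and between 11.9 and 41.8 CPM. A processed pseudogene, Tyms-ps, is listed separately, and reads could be split between it and Tyms. All 5 genes of nucleotide supply had log2 fold changes above 0, with a median of 0.43 as deposited, 0.32 under median-of-ratios scaling and 0.31 under quantile normalization, and without EPS replicate 4 it was 4 of 5 with a median of 0.22.

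**Figure D3:**
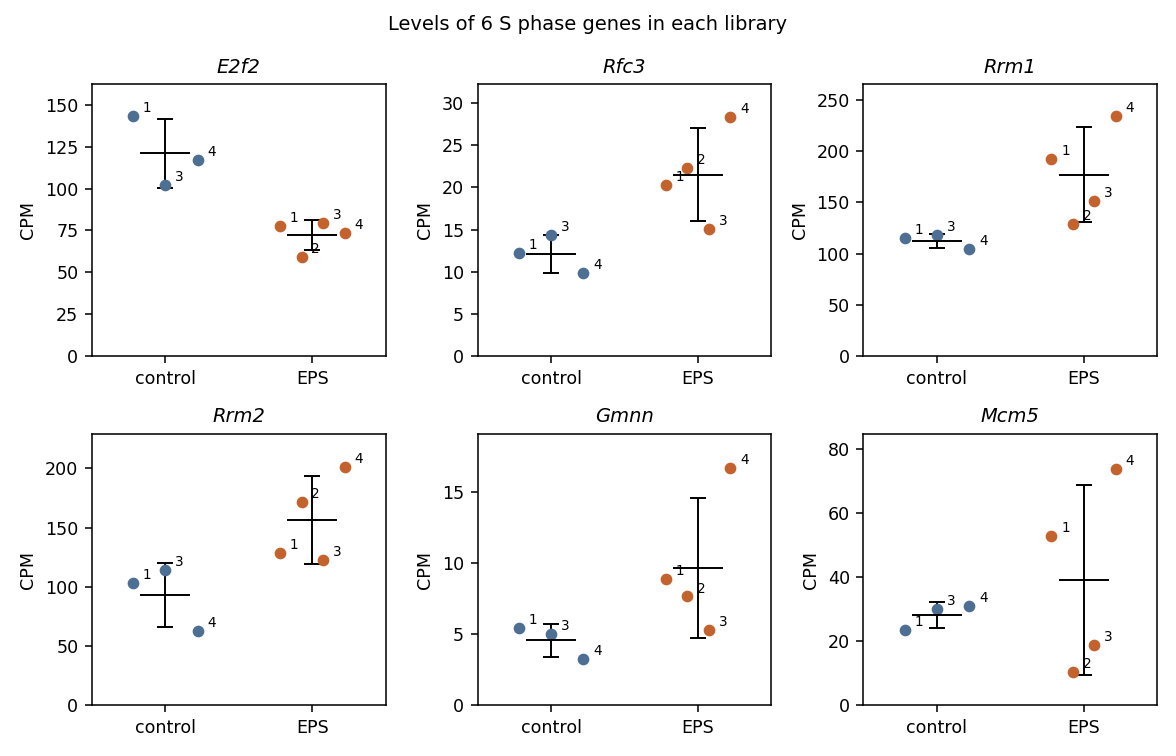
CPM of E2f2, Rfc3, Rrm1, Rrm2, Gmnn and Mcm5 in each library, with the replicate number beside each point and the mean and SD of each group as a line and bars. The groups do not overlap for the first 4 genes, overlap slightly for Gmnn, and overlap fully for Mcm5, whose EPS libraries lie at 52.9, 10.5, 18.7 and 73.8 CPM.

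Chromatin copying covers the genes that restore DNA methylation and nucleosomes behind the fork. Uhrf1, which brings the maintenance methyltransferase DNMT1 to newly copied DNA, was at 24.9, 26.7 and 30.2 CPM in control and at 36.2, 14.03, 16.0 and 61.4 CPM in EPS. As with Mcm5, EPS replicates 1 and 4 were above all controls and replicates 2 and 3 below all controls, which left a log2 fold change of −0.021 (SE 0.46; adjusted p = 0.986 in limma). Dnmt1 lay between 47.9 and 62.4 CPM in control and between 45.9 and 87.3 CPM in EPS. Of the CAF-1 histone chaperone subunits, Chaf1a lay between 12.7 and 23.7 CPM in control and between 10.3 and 33.4 CPM in EPS, and Chaf1b between 9.56 and 19.1 CPM and between 4.87 and 21.5 CPM. No gene of the 4 passed the test at an unadjusted P under 0.05, but without EPS replicate 2 Dnmt1 and Chaf1a did, with log2 fold changes of 0.44 and 0.78 against 0.27 and 0.45 with all libraries. Without EPS replicate 4 these were 0.14 for Dnmt1 and 0.25 for Chaf1a, and neither passed. Chaf1a was also 0.25 without EPS replicate 1, and Dnmt1 was 0.16 without control replicate 3.

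Each EPS library was then set alone against the control libraries. The median log2 difference of the 49 genes from their control mean was 0.47 in EPS replicate 1, −0.14 in replicate 2, −0.27 in replicate 3 and 1.04 in replicate 4. Over the 12256 genes with a mean of at least 1 CPM the same medians were 0.084, 0.17, 0.041 and 0.11. In EPS replicate 4, 42 of the 49 genes were above every control, where 32.1% of the 12256 genes were. In EPS replicate 1 it was 27 of the 49, where 28.6% of the 12256 genes were. EPS replicates 2 and 3 had 8 and 5 genes above every control, where 38.9% and 26.1% of the 12256 genes were, and 18 and 21 genes below every control, where 15.8% and 17.7% of the 12256 genes were below. The same medians under median-of-ratios scaling were 0.38, −0.31, −0.30 and 0.92, and without control replicate 4 they were 0.48, −0.17, −0.31 and 0.93, with 36, 12, 8 and 44 genes above both remaining controls, where 40.9%, 51.6%, 37.4% and 44.5% of the 12256 genes were.

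EPS replicate 4 was the highest of the 7 libraries in 41 of the 49 genes, where it was highest in 14.4% of the 12256 genes, and in 38 under median-of-ratios scaling. Among the 4 EPS libraries alone it was highest in 45 of the 49 genes, where it was in 21.8% of the 12256 genes. The lowest EPS library was replicate 3 in 28 genes, replicate 2 in 20 and replicate 1 in 1, where these were lowest in 35.6%, 23.2% and 19.0% of the 12256 genes. Both EPS replicates 1 and 4 lay above both replicates 2 and 3 in 37 of the 49 genes, or 75.5%, where this held for 16.7% of the 12256 genes. The 12 genes without that order were E2f2, E2f3, Cdk2, Cdc45, Cdc7, Orc6, Pola2, Pole2, Pcna, Rfc3, Rpa2 and Rrm2. E2f2, Rfc3 and Rrm2, whose groups did not overlap, were among these 12, and Rrm1 was not. The genes share their libraries, so this order is a description of 4 libraries and not a test over 49 genes. The median SD of log2(CPM + 1) over the 49 genes was 0.336 in control and 0.575 in EPS, where it was 0.315 and 0.252 over the 12256 genes. The SD was larger in EPS than in control for 36 of the 49 genes, where this held for 39.2% of the 12256 genes. The control SDs include control replicate 4, and these comparisons were not made without it.

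**Figure D4:**
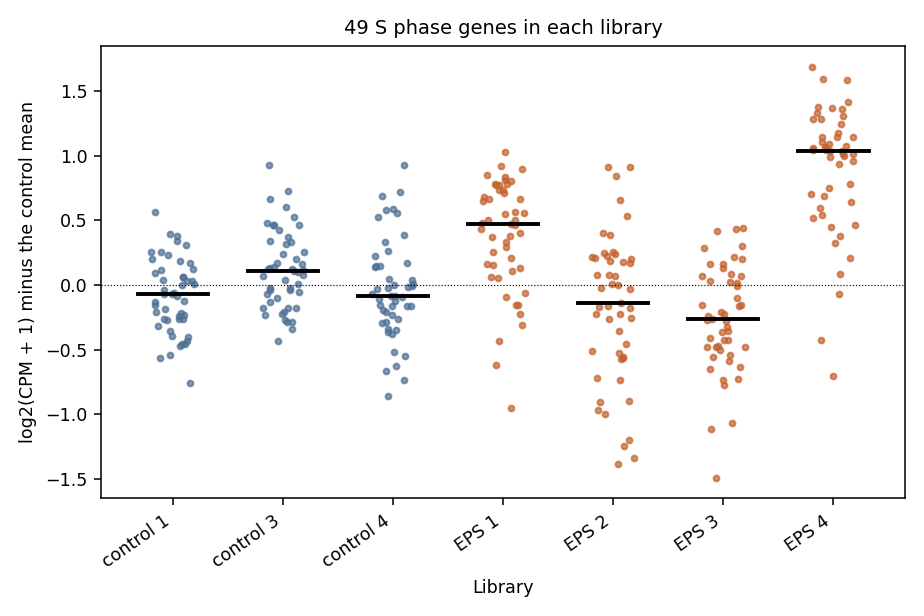
Log2(CPM + 1) minus the control mean for the 49 genes in each library, 1 point per gene, with the median as a bar. The medians of the EPS libraries are 0.47, −0.14, −0.27 and 1.04, and the 3 control libraries have medians between −0.086 and 0.11.

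Other genes of the pathway were read from a second list of 49 genes, of which 48 were listed, with Ticrr not found. It holds the remaining subunits of ORC, GINS, the polymerases, RFC and RPA, checkpoint and fork proteins, nucleotide enzymes and the pocket proteins that restrain E2F. In limma 1 of the 48 passed an unadjusted P under 0.05, where 11.6% of tested genes did, and their median log2 fold change was 0.21, with 41 above 0. Under median-of-ratios scaling the median was 0.10 with 31 above 0, under quantile normalization 0.11 with 28, and without EPS replicate 4 it was 0.10 with 28. The gene that passed was Ccna2, the cyclin that acts with CDK2 in S phase and with CDK1 in G2. It was at 36.6, 62.6 and 45.2 CPM in control and at 105, 62.4, 56.1 and 166 CPM in EPS, high in EPS replicates 1 and 4 again. For Ccna2 the log2 fold change was 0.90 (SE 0.37; adjusted p = 0.390 in limma; exact two-sided permutation p = 0.171). The unadjusted P of Ccna2 was not under 0.05 with either other scaling or in the unfiltered fit. Nor was it under 0.05 without EPS replicate 1 or 4 or control replicate 1 or 4. The log2 fold change in these fits lay between 0.60 (without EPS replicate 4) and 0.90 (unfiltered). With the replicate number as a block the log2 fold change was 1.07, and the unadjusted P was again not under 0.05. Median log2 differences of these 48 genes from control were 0.28, 0.16, −0.17 and 0.64 in EPS replicates 1 to 4.

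The summed markers of G2 and mitosis were highest in the same EPS libraries as the summed S phase genes, replicates 4 and 1. All 12 had log2 fold changes above 0, under each scaling too, and 11 of 12 passed an unadjusted P under 0.05 in limma, where 8.4% of tested genes were higher at that P, with a median of 1.08 and a lowest adjusted p of 0.198. That count was 8 under median-of-ratios scaling (6.08% of tested genes higher), 7 under quantile normalization (5.74%) and without EPS replicate 4 (6.46%), and 6 in the unfiltered fit (6.03%) and without EPS replicate 1 (6.79%) or control replicate 4 (7.37%). Of the 12, 3 also passed an unadjusted P under 0.01 and 2-fold, where 0.966% of tested genes were higher by that rule. Their summed level was 465, 454 and 337 CPM in control and 1128, 539.9, 746 and 1515 CPM in EPS. The summed level of the 49 S phase genes was 1247, 1347 and 1262 CPM in control and 1640, 1207, 1119 and 2297 CPM in EPS. EPS replicates 2 and 3 were thus above all controls in the sum of G2 and mitosis markers and below all controls in the sum of S phase genes. For EPS replicate 2 the first rested on scaling: its sum under median-of-ratios scaling was 492 against 494 in control replicate 1, and Mki67, Top2a, Cenpf and Foxm1 were not above all controls in it as deposited. In EPS replicate 3 Cdk1, Ccnb1, Ccnb2, Aurkb and Bub1 were not. Without E2f2, an omission chosen, like the scaling of these sums, after seeing the data, EPS replicate 3 was still below all controls (1039 CPM against 1103, 1244 and 1145 CPM), and EPS replicate 2, at 1147 CPM, was not, though both were under either other scaling. Mki67, a marker of cycling cells, was at 131, 103 and 90.0 CPM in control and at 391, 124, 205 and 452 CPM in EPS. The part of cycling cells in the S phase levels was not tested.

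The 12 myotube markers summed to between 12446 and 14669 CPM in control and to 13445, 12995, 12734 and 10396 CPM in EPS replicates 1 to 4, lowest in the library where the S phase genes were highest. Of these markers 9 had log2 fold changes below 0, and 2 of them passed an unadjusted P under 0.05 in limma, where 3.21% of tested genes were lower at that P. That count was 4 in DESeq2 (5.42% of tested genes lower), in edgeR (5.95%), under median-of-ratios scaling (4.77%), with a pseudocount of 0.1 (3.09%) and without control replicate 1 (3.88%). Markers of undifferentiated myoblasts or reserve cells summed to between 1877 and 2639 CPM in control and between 1387 and 1801 CPM in EPS. Most of that sum was Itga7, at 1210 to 1763 CPM in control and 937 to 1233 CPM in EPS. Of these 8 markers 7 had log2 fold changes below 0 and 3 passed an unadjusted P under 0.05, against the same 3.21%. Here DESeq2 gave 6, median-of-ratios scaling 5, and edgeR and quantile normalization 4, against 5.42%, 4.77%, 5.95% and 4.98% of tested genes. The fits without EPS replicate 1, 3 or 4 or control replicate 4 gave 2 each, against 2.56%, 2.86%, 2.26% and 3.87%. Myod1, which codes for a myogenic transcription factor of myoblasts and young myotubes, was at 136, 99.8 and 160.1 CPM in control and at 59.2, 93.9, 88.8 and 48.0 CPM in EPS. Of the same 8 markers, Pax7 had a log2 fold change of −0.12 (SE 0.24) and Myf5 of 0.20 (SE 0.34). Neither Pax7 nor Myf5 passed an unadjusted P under 0.05 in limma. Genes of cell cycle exit summed to 2149, 2073 and 3469 CPM in control, highest in control replicate 4, and to between 1407 and 1938 CPM in EPS. Most of that sum was Cdkn1a, at 1352 to 2642 CPM in control and 1001 to 1358 CPM in EPS. Of these 6 genes 5 had log2 fold changes below 0 and 2 passed an unadjusted P under 0.05, against 3.21% of tested genes. That number was 3 in DESeq2 (5.42%) and edgeR (5.95%) and 1 in the unfiltered fit (2.15%) and without EPS replicate 2 (3.59%), 3 (2.86%) or 4 (2.26%) or control replicate 4 (3.87%). Ccnd3, the cyclin that accumulates as myoblasts differentiate, was at 373, 421 and 559.7 CPM in control and at 335, 291, 257 and 220.4 CPM in EPS, with no overlap. In the same list Cdkn2c had a log2 fold change of 0.36 (SE 0.28), Cdkn1b of −0.21 (SE 0.35) and Rb1 of −0.11 (SE 0.24). None of these passed an unadjusted P under 0.05 in limma. The part of the differentiation state in the S phase levels was not tested.

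**Figure D5:**
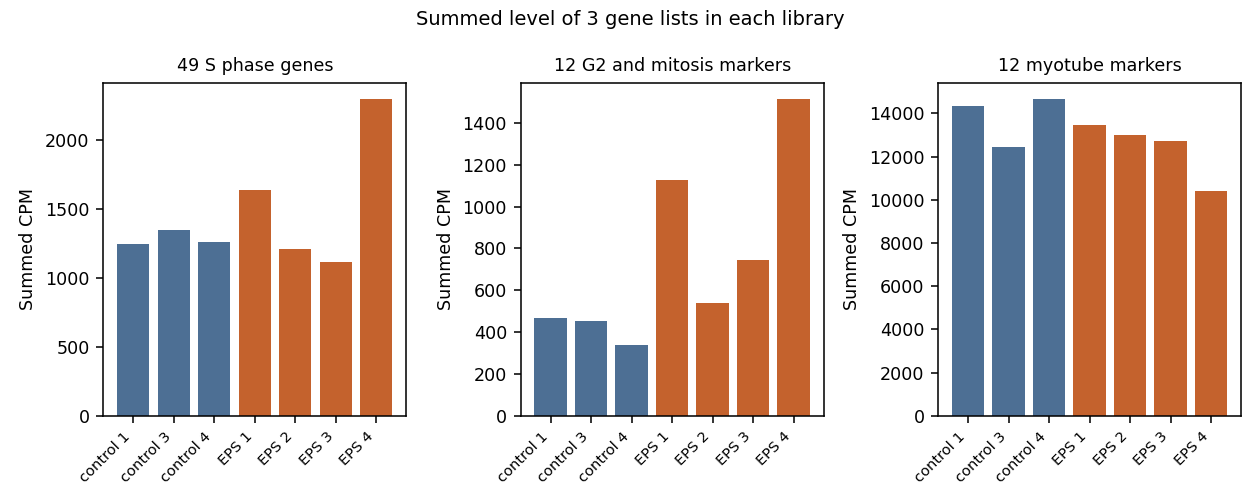
Summed CPM of the 49 S phase genes, the 12 G2 and mitosis markers and the 12 myotube markers in each library, control in blue and EPS in orange. EPS replicates 4 and 1 are highest for the S phase genes (2297 and 1640 CPM) and for the G2 and mitosis markers (1515 and 1128 CPM), and EPS replicate 4 is lowest for the myotube markers (10396 CPM).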

How the data were processed

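RNA of C2C12 myotubes (3 control and 4 EPS libraries) was sequenced by the authors from poly(A)-selected, directional libraries as paired reads of 100 bp and mapped to GRCm38 with STAR 2.5.4b, per the labels. The authors deposited CPM per gene and library. The read counter, annotation and strand setting are not given in the sources used here. The values are neither log-transformed nor quantile-normalized. Replicate numbers come from the sample titles.

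Genes above 0 CPM in at least 1 library (19144) were tested as log2(CPM + 1) with limma 3.58.1 in R 4.3.3 (empirical Bayes with a mean-variance trend), and P-values were adjusted over them by Benjamini-Hochberg. A pseudocount of 1 understates changes of low genes. Single genes were also tested by exact permutation over all 35 splits. Division by what 1 read is worth gave whole reads for 100% of values (within 0.01 of a whole number), and these reads went into the alternatives DESeq2 1.42.0 and edgeR 4.0.16 (quasi-likelihood). The tests were checked on simulated data.

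The members, lists and rules were chosen with earlier results of these data known. Values in every library are given for the 12 genes with the smallest P, the 6 with the largest fold change and E2f1, Cdt1, Gmnn, Mcm2, Pcna, Rrm2, Ccne1 and Cdk2, 17 in all, and for 9 others (Mcm3 to Mcm7, Cdc6, Prim1, Uhrf1, Tk1) chosen after their values were seen, as were Mki67, Myod1 and Ccnd3. Coordinates and transcript lengths are of GENCODE M21. Alternatives were other pseudocounts, filters, scalings, tools, a replicate block, a P threshold of 0.001 and leaving out each library.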

Additional observations from a re-analysis of the deposited data

Results flagged for a closer look

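In the EPS group of 4 libraries, 49 S phase genes and 9 sums over them were examined for a library far from the others. The only one was E2f3 in EPS replicate 2, at 25.5 CPM, where the nearest of the other EPS libraries was at 29.5 CPM. The gap was 0.881 of the range of the 4 libraries, above Dixon's 95% critical value. Chance places about 5% of groups past that value, and 5.92% of the 12256 genes with a mean of at least 1 CPM passed it. The value lies inside the control range of E2f3.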

How the results depend on the processing

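No S phase gene passed the P and fold thresholds in any fit. Genes of the whole table past them numbered 269, and 601 with a pseudocount of 0.1, 169 with no filter, 629 in edgeR, 585 in DESeq2, 106 at P under 0.001 and 209 to 325 without single libraries. With the replicate number as a block they numbered 161, the median of the S phase genes was 0.42, and 6 of them (E2f2, E2f7, Cdk2, Rrm1, Dnmt1 and Chaf1a; 8.5% of tested genes) had P under 0.05, so that Gmnn, Rfc3 and Rrm2 lost it and E2f7, Cdk2, Dnmt1 and Chaf1a gained it. The log2 fold changes of Gmnn, Rfc3 and Rrm2 were 0.92, 0.73 and 0.70 with the block, against 0.85, 0.76 and 0.75 in the main fit. EPS replicate 2 has no control of its number and adds nothing to the contrast in that fit. In it 7 markers of G2 and mitosis were higher at an unadjusted P under 0.05, where 5.52% of tested genes were. Lower at that P were 0 markers of myotubes, 4 of myoblasts or reserve cells and 1 of cell cycle exit, where 2.98% of tested genes were. Libraries with the same number correlated at 0.245, −0.447 and 0.0679 in their deviations from the group means and matched best with EPS numbers 3, 2 and 4, so the numbers were not taken as pairs. Of the other replication genes, 1 was higher at P under 0.05 as reported, where 8.4% of tested genes were. DESeq2 and edgeR placed 2 higher (Ccna2 and Chtf18), where 5.19% and 5.6% of tested genes were. The unfiltered fit (Pold3 and Pole3; 6.03% of tested genes higher) and the block (Chtf18 and Rfc1; 5.52%) also placed 2 higher, without Ccna2. Under median-of-ratios scaling (6.08% of tested genes higher) and quantile normalization (5.74%) 0 had P under 0.05. Without single libraries 0 (without EPS replicate 1 or control replicate 4) to 5 (without control replicate 3) had P under 0.05. In the fits without single libraries 8.72% to 14.2% of tested genes had it, with 14.2% without control replicate 3.

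Without single libraries, 4 to 9 S phase genes had P under 0.05 (9 without EPS replicate 2 or 3), where 8.72% to 14.2% of tested genes did (10.8% and 11.8% without EPS replicate 2 and 3). Genes that gained it were E2f7, Cdk2, Pole, Dnmt1 and Chaf1a without EPS replicate 2, Dbf4, Prim1, Prim2 and Tyms without EPS replicate 3, Cdc6 without EPS replicate 4, Cdc45, Orc1 and Prim2 without control replicate 3 and E2f8 without control replicate 4. Of the S phase genes 4 to 8 did not overlap between groups (8 without control replicate 3, 7 without control replicate 4 or EPS replicate 2 or 3), where the share of tested genes rose from 10.6% to between 13% and 21.5% (21.5%, 19.7%, 15.4% and 15.8% for those named), and their median lay between 0.0025 (without EPS replicate 4) and 0.42 (without EPS replicate 2). E2f2 and Rrm1 kept P under 0.05 in all 16 alternative fits, Rfc3 in 15, Rrm2 in 14 and Gmnn in 6, and their adjusted p ranged from 0.0112 to 0.697, with only DESeq2 placing E2f2 under 0.05. Of 416 alternative values for 26 genes, 34 changed sign. Pcna was −0.051 in DESeq2, −0.038 in edgeR, −0.10 with median-of-ratios scaling, −0.043 with quantile normalization and −0.046 with the block. With median-of-ratios scaling Mcm3, Mcm5 and Mcm6 were −0.012, −0.016 and −0.010, and with quantile normalization Mcm3 and Mcm5 were −0.025 and −0.027. Uhrf1 was 0.12 in DESeq2, 0.13 in edgeR and 0.27 with the block, where E2f1 was 0.086. Without single libraries the ranges that cross 0 were −0.30 to 0.22 for E2f1, −0.36 to 0.038 for Cdt1, −0.23 to 0.26 for Pcna, −0.053 to 0.41 for Ccne1, −0.24 to 0.43 for Mcm3, −0.33 to 0.57 for Mcm5, −0.20 to 0.37 for Mcm6, −0.037 to 0.42 for Mcm7, −0.41 to 0.27 for Uhrf1 and −0.16 to 0.64 for Tk1. The cause was not tested. Of all calls past the thresholds 68.8% were higher as deposited, 51.6% with quantile normalization and 52.8% with median-of-ratios scaling. Depth limited Orc1, Cdc6 and Gins1 most, and intervals of counting error were not added because the spread between libraries includes it.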
